A study of Mus musculus with 4 samples.

Results

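Hspa5, Creld2, Prdx4 and Xbp1 are genes of the unfolded protein response, and their transcripts were followed in mouse lung after allergen challenge. Every probe carrying 1 of these 4 symbols in the platform annotation was taken, which gave 4 probes, 1 per gene, out of 20205 probes on the array. All 4 probes had a value on all 4 arrays, as did 18160 probes in all, which named 9153 genes. The members were picked with their averaged challenge effect already known, so that effect is described below without a test. Only the comparison between the airs is tested.

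Each dual-colour array set lung RNA of ovalbumin-sensitized and ovalbumin-challenged BALB/cJ mice against the pooled lung RNA of 6 control animals that were not sensitized and breathed the same air. BALB/cJ is an inbred mouse strain prone to allergic responses, and ovalbumin is an egg protein that serves as the allergen. Challenged lung of animals that breathed air containing UCP, an abbreviation the labels leave unexplained, was on 2 arrays, and challenged lung of animals in particle-free air was on the other 2. Challenged RNA carried Cy5 on array 1 and Cy3 on array 2 of each air. The labels give no age or sex, and leave unsaid if the array pair of an air came from different animals. The p-values thus reflect array-to-array spread, which may be technical. Challenged animals had also been sensitized while the controls had not, so sensitization and challenge cannot be told apart.

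Each value is the log2 of challenged over control signal, so that 1 on this scale is a 2-fold higher signal in challenged lung. The deposited table does not state its direction. A run of probes at 1 shared extreme value was positive on the arrays with challenged RNA in Cy5 and negative on those with it in Cy3, so all arrays had been turned the same way before deposit. The sign of challenged over control is likely only, because it rests on the usual dye convention and on genes whose rise in allergic lung is well known, such as the macrophage gene Chil3 at 5.83 and 5.72 in UCP air and at 5.45 and 5.32 in particle-free air. Array medians lay between -0.07 and 0.02, and Pearson's r between pairs of arrays over all probes was 0.06 to 0.14. This r includes the probes at a shared extreme value, whose sign differs between the dyes, and it was not computed without them. Precision is limited by there being 4 arrays. These are whole-lung samples, in which more cells of a type and more RNA per cell cannot be told apart.

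The unfolded protein response is a set of signals that leave the endoplasmic reticulum (ER) when unfolded proteins collect there. The sensors IRE1, PERK and ATF6 sit in the ER membrane. IRE1 splices the Xbp1 transcript, whose protein then raises genes for folding, secretion and degradation, ATF6 is cut to release a further transcription factor, and PERK slows translation while favouring ATF4. Cells that secrete much protein, such as plasma cells and mucus-producing airway cells, keep parts of this response active.

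ATF6 and XBP1 are known to act through the ER stress response element, which reads CCAAT, then 9 free bases, then CCACG. The 250 bases before the annotated start of each gene (RefSeq, GRCm38.p6) were searched on both strands. Hspa5 and Creld2 each held 1 exact match, while Prdx4 and Xbp1 held none in this window. The windows of Hspa5, Creld2 and Prdx4, the members that hold CCAAT or CCACG, are shown so that their spacing can be compared, with CCAAT and CCACG on either strand in capitals.
Hspa5, chr2:34771840-34772089, plus strand: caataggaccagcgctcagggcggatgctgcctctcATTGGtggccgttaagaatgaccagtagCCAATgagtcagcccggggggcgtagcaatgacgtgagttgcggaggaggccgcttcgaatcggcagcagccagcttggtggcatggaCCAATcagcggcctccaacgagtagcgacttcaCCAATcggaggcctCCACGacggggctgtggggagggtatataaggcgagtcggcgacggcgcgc
Creld2, chr15:88819396-88819645, plus strand: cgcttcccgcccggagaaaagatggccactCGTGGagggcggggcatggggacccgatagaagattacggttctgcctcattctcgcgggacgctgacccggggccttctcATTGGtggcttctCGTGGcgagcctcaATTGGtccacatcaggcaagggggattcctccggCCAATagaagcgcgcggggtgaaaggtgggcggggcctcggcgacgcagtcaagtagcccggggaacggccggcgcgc
Prdx4, chrX:155338461-155338710, minus strand: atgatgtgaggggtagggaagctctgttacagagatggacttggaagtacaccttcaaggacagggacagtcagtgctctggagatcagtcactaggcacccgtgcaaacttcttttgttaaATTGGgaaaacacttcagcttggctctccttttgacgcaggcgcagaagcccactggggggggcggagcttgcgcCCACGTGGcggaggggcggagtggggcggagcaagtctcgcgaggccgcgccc

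Hspa5 held 4 CCAAT boxes and 1 CCACG, Creld2 held 3 and 2, and Prdx4 held 1 and 2, of which its CCACG letters overlap on opposite strands. Xbp1 held neither in its window (chr11:5520391-5520640, plus strand). Each short motif is common, with CCAAT in 33.8% and CCACG in 28.3% of 32851 windows of the same length. The full element stood in 37 windows, or 0.113%. A match describes letters and not binding.

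Hspa5 encodes BiP, the abundant Hsp70 chaperone of the ER lumen that also holds the stress sensors inactive. Its log2 ratio was 0.89 and 0.62 on arrays 1 and 2 of UCP air, against 0.58 and 0.94 on those of particle-free air. It was above 0 on all 4 arrays, and the values of the airs overlapped. The mean was 0.76 ± 0.19 (SD, n = 4), a 1.69-fold higher signal in challenged lung.

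Creld2 encodes a disulfide isomerase-like protein that is secreted or held in the ER and is strongly induced by ER stress in cultured cells. Its log2 ratio was 1.05 and 1.04 in UCP air, against 0.90 and 1.21 in particle-free air, so that the UCP arrays lay inside the range of the others. The mean was 1.05 ± 0.13 (SD, n = 4), or 2.07-fold.

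Prdx4 encodes the ER peroxiredoxin, which uses hydrogen peroxide to form disulfide bonds in proteins being folded. Its log2 ratio was 1.02 and 1.06 in UCP air, against 1.22 and 1.26 in particle-free air. Both UCP arrays lay below both others, an order whose share over all probes was not counted. The difference between the airs is tested below. The mean was 1.14 ± 0.12 (SD, n = 4), or 2.20-fold, and Prdx4 was the member at least 2-fold higher on all 4 arrays.

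Xbp1 encodes the transcription factor downstream of IRE1 and is itself needed for plasma cells to secrete antibody. Its log2 ratio was 1.18 and 0.71 in UCP air, against 0.74 and 0.62 in particle-free air. Array 1 of UCP air stood above the rest, and the airs overlapped. The mean was 0.81 ± 0.25 (SD, n = 4), or 1.76-fold. The files do not place its probe on the transcript, so these ratios say nothing of the spliced form.

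**Figure D1:**
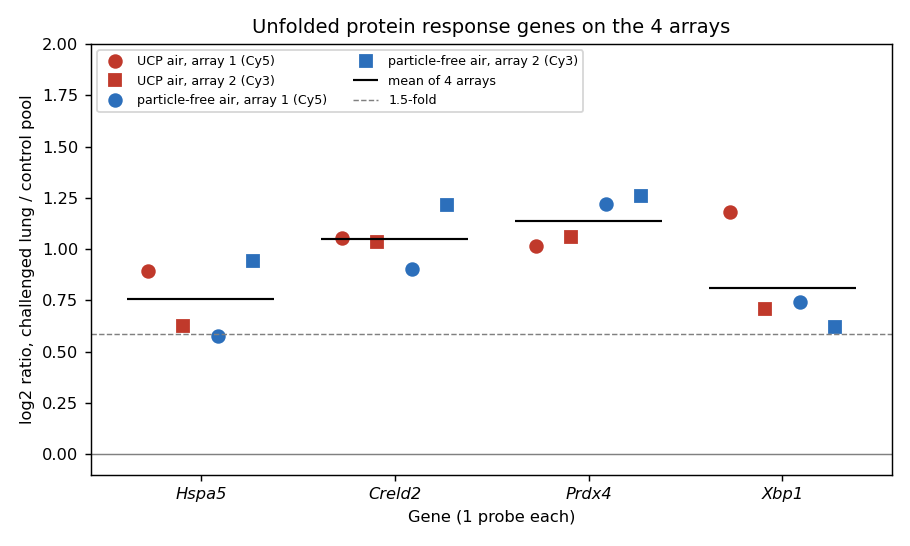
Log2 ratio of challenged lung over its control pool (vertical axis) for Hspa5, Creld2, Prdx4 and Xbp1, with a point for each of the 4 arrays (red UCP air, blue particle-free air; circles array 1, squares array 2), the mean as a bar and 1.5-fold as a dashed line. All 16 points lie above 0, and 15 lie above the 1.5-fold line, with Hspa5 on array 1 of particle-free air at 0.58 just under it.

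In the order of their mean log2 ratios the members ran from Prdx4 through Creld2 and Xbp1 to Hspa5. Each neighbouring pair had overlapping values, while the lowest value of Prdx4 (1.02) lay above the highest of Hspa5 (0.94). At least 1.5-fold higher on all 4 arrays were 3 of the 4 members, beside 1.13% of all probes, and 1 member was at least 2-fold higher on all 4, beside 0.341%. These shares are given as a description, because the members were chosen on the same values. Hspa5 missed the line on 1 array, with a fold of 1.49. It passed on 4 of 4 with the array medians set to 0, but not with the arrays also scaled to the same spread. Over the arrays the members had an SD of 0.12 to 0.25, beside a median SD of 0.40 over all probes. The share of probes with an SD as small was 4.17% for Prdx4, 5.02% for Creld2, 12.7% for Hspa5 and 24.7% for Xbp1. These SDs come from the values the members were chosen on, so they too are a description. By dye, the mean log2 ratio with challenged RNA in Cy5 and in Cy3 was 0.73 and 0.78 for Hspa5, 0.98 and 1.12 for Creld2, 1.12 and 1.16 for Prdx4, and 0.96 and 0.66 for Xbp1.

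The next question was whether UCP in the air altered the effect of challenge on these genes. The difference in log2 ratio, UCP air minus particle-free air, was 0.26 for Xbp1 (95% confidence interval -0.62 to 1.14) and -0.20 for Prdx4 (-0.97 to 0.56). Hspa5 and Creld2 had differences of -0.003 (-0.87 to 0.86) and -0.01 (-0.83 to 0.80). In limma, a linear model with moderated variances fitted to all 18160 probes, none of the 4 passed an adjusted p of 0.05 (adjusted p = 0.985 for Prdx4 and Xbp1 and 0.999 for Hspa5 and Creld2, Benjamini-Hochberg, two-sided). In this comparison 0% of all probes passed in either direction, while an unadjusted p under 0.05 was reached by 1.95% of probes in the direction of UCP air and by 2.02% in the other. Among the pathway genes the smallest unadjusted p belonged to 1 of the 2 probes of Nfe2l1, an ER-anchored transcription factor of proteasome genes, with -1.44 and -1.45 in UCP air, against 0.001 and -0.21 in particle-free air. Its difference of -1.34 (95% confidence interval -2.13 to -0.56) did not pass after adjustment over all probes (limma, adjusted p = 0.984). The intervals reach differences close to the size of the effects themselves, so a weaker or stronger response in UCP air was not detectable with 2 arrays per air.

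**Figure D2:**
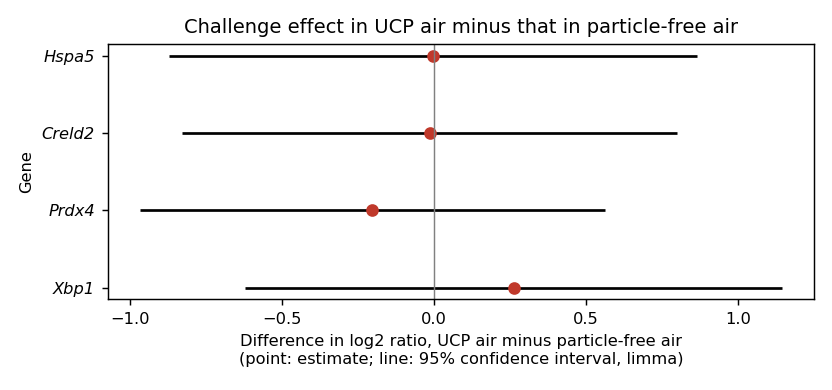
Difference in log2 ratio between UCP air and particle-free air (horizontal axis) for each of the 4 genes, with the estimate as a point and its 95% confidence interval from limma as a line. Every interval includes 0, and the estimates run from -0.20 for Prdx4 to 0.26 for Xbp1.

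Other genes of the ER folding and secretion machinery were then read from 6 lists, with the probes of a gene averaged. Of 93 measured genes other than the members, 68 had a mean log2 ratio above 0, beside 48.3% of all 9153 genes, and 32 (34.4%) were above 0 on all 4 arrays, beside 14.2%. At least 1.5-fold higher on all 4 arrays were 5 of the 93 (5.38%), beside 1.16% of all genes, and 0 were at least 1.5-fold lower on all 4, beside 1.02%. The median of the 93 was 0.21 and that of all genes -0.01. In limma's averaged effect 0 of their 129 probes passed an adjusted p of 0.05, beside 0.00551% of all probes in the higher direction and 0% in the lower. By the unadjusted p 30 of the 129 were higher, where 6.45% of all probes were, and 10 of the 129 were lower, where 7.59% of all probes were. With the probes of a gene averaged before the fit, 0 of the 93 genes passed as well, beside 9 of all 9153 genes.

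Among the chaperones of the ER lumen, Hsp90b1 was past the fold line on all arrays, as was Creld2, which was chosen with its ratio known. Hsp90b1, the Hsp90 of the ER known as GRP94, had log2 ratios of 0.74 and 0.86 in UCP air, against 0.66 and 1.24 in particle-free air, with a mean of 0.88 ± 0.26 (SD, n = 4). It was above 1.5-fold on every array. Of the 17 chaperones and co-chaperones measured, 13 had a mean above 0, beside 48.3% of all genes, and the list median was 0.24. Hspa5 and Creld2, both chosen with their ratios known, are included. Manf, a small secreted protein that binds BiP, averaged 0.59 ± 0.13 (SD, n = 4), and its 3 probes averaged 0.92, 0.71 and 0.13, so that they disagreed. At the low end was Creld1, the paralog of Creld2 that is known for heart valve development, at 0.03 and -0.42 in UCP air, against -0.46 and -0.06 in particle-free air. Its mean was -0.23 ± 0.25 (SD, n = 4). Its values lay below those of Creld2, a gap that is a description only, because Creld2 was chosen with its high ratio known.

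Enzymes of oxidative folding had the highest share of genes past the fold line among the ER lists, 4 of 14, beside 1.16% of all genes. Prdx4, which was chosen with its ratio known, is among the 4. Pdia6, a protein disulfide isomerase, had log2 ratios of 0.81 and 0.86 in UCP air, against 0.97 and 1.02 in particle-free air. Txndc5, another disulfide isomerase, had 0.66 and 0.91 in UCP air, against 0.90 and 0.62 in particle-free air. Both were above the line on all arrays and varied little. Erp29, an ER protein related to the disulfide isomerases, passed too, but with 3.53 on array 2 of UCP air, where array 1 gave 0.62 and particle-free air gave 0.87 and 1.13. Its mean of 1.54 ± 1.34 (SD, n = 4) therefore rests largely on 1 array. P4hb, the best known disulfide isomerase, averaged -0.37 ± 0.44, and Tmx1, a membrane-bound one, was lowest at -0.54 ± 0.52 (SD, n = 4).

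Among genes that bring proteins into the ER, Sec61b, the beta subunit of the translocation channel, had the highest ratio. Its log2 ratio was 1.35 and 1.48 in UCP air, against 0.90 and 1.72 in particle-free air, with a mean of 1.36 ± 0.34 (SD, n = 4), or 2.57-fold. It was the only 1 of 19 genes of this list past the fold line on all arrays, and the lowest was Sec63, which couples the channel to BiP, at -0.37 ± 0.41 (SD, n = 4). The N-glycosylation list had a median of 0.34. Of its 18 genes 13 were above 0 and 0 past the fold line on all arrays, beside 48.3% and 1.16% of all genes. Rpn1, a subunit of oligosaccharyltransferase, was highest at 0.83 ± 0.28, and Gfpt1, the first enzyme of the hexosamine pathway, was lowest at -0.64 ± 0.70 (SD, n = 4 each). On both particle-free arrays 4 genes of this list were at least 1.5-fold higher and on both UCP arrays 0 were, beside 3.73% and 2.93% of all genes. That contrast in counts was not tested.

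Genes of ER-associated degradation, which returns misfolded proteins to the cytosol, had a median of 0.12. Of 17 genes 13 were above 0 and 0 past the fold line on all arrays, beside 48.3% and 1.16% of all genes. Dnajb12, a membrane J-protein of this route, was highest at 0.81 ± 0.66, and the ubiquitin-conjugating enzyme Ube2g2 was lowest at -0.61 ± 0.27 (SD, n = 4 each). Dnajb12 followed the dye, with 1.47 and 1.24 on the Cy3 arrays of UCP and particle-free air and 0.50 and 0.04 on the Cy5 arrays. Among 12 sensors and transcription factors the median was 0.05. The highest, and the 1 gene past the line, was Xbp1, which was chosen with its ratio known. Nfe2l1 was lowest at -0.30 ± 0.31 (SD, n = 4), and its 2 probes averaged 0.18 and -0.77. The sensor genes Ern1, Eif2ak3 and Atf6 were not analysed here.

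**Figure D3:**
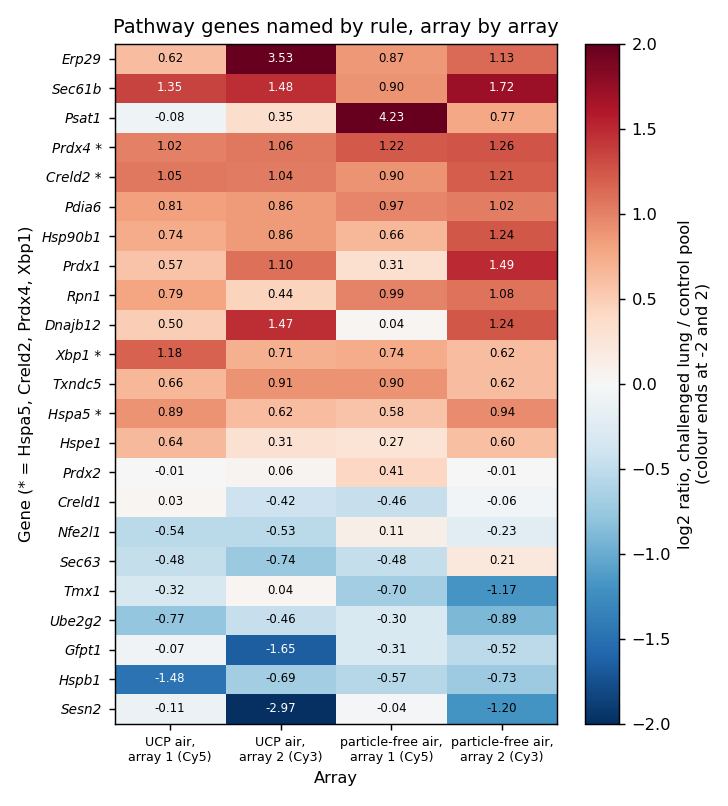
Log2 ratio of challenged lung over its control pool for 23 pathway genes named by rule (rows, highest mean on top, the 4 members starred) on each of the 4 arrays (columns), with red higher and blue lower in challenged lung and the value in each cell. Prdx4, Creld2 and Pdia6 are even across the row, while Erp29, Psat1, Gfpt1 and Sesn2 take their mean from 1 or 2 arrays.

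The branch downstream of PERK and ATF4 was read the same way. Its 25 measured genes serve amino acid supply, tRNA charging and the stress-induced feedback on translation. Their median was -0.01, with 12 above 0 and 13 below, beside 48.3% of all genes above 0. On all 4 arrays 2 of them were above 0 and 7 below, beside 1301 above and 1291 below of all 9153 genes. At least 1.5-fold higher or lower on all 4 arrays were 0, beside 1.16% higher and 1.02% lower of all genes. Psat1, an enzyme of serine synthesis, was highest at 1.32 ± 1.97 through a value of 4.23 on array 1 in particle-free air, and Sesn2, a stress-inducible regulator of growth signalling, was lowest at -1.08 ± 1.37 (SD, n = 4 each). Atf4 and Ddit3, which encodes the proapoptotic factor CHOP, averaged 0.03 ± 0.38 and 0.01 ± 0.31 (SD, n = 4 each). Limma's averaged effect passed 0 of the 31 probes of this branch, beside 0.00551% of all probes higher and 0% lower. By the unadjusted p 2 were higher and 2 lower, beside 6.45% and 7.59% of all probes.

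Heat shock proteins of the cytosol and mitochondria, the counterparts of the ER chaperones, had a median of 0.02 over 15 genes. Past the fold line on all arrays were 0 of them, beside 1.16% of all genes. Hspe1, the mitochondrial co-chaperonin, was highest at 0.45 ± 0.19, and Hspb1, a small heat shock protein of muscle and epithelium, was lowest at -0.87 ± 0.41 (SD, n = 4 each). Limma's averaged effect passed 0 of their 24 probes, beside 0.00551% of all probes higher and 0% lower. By the unadjusted p 3 were higher and 4 lower, beside 6.45% and 7.59% of all probes. Of the peroxiredoxins outside the ER, the cytosolic Prdx1 had log2 ratios of 0.57 and 1.10 in UCP air, against 0.31 and 1.49 in particle-free air, and Prdx2 averaged 0.11 ± 0.20 (SD, n = 4). With challenged RNA in Cy5 and in Cy3, Prdx1 averaged 0.44 and 1.29, a wider gap than that of Prdx4 given above.

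**Figure D4:**
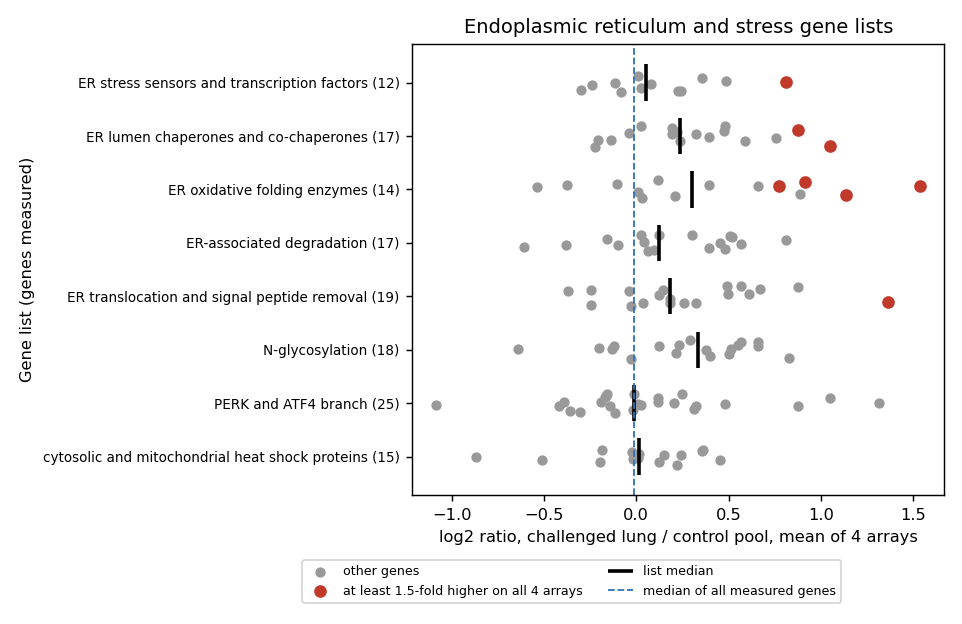
Mean log2 ratio over the 4 arrays (horizontal axis) of each measured gene in 8 lists (rows, with the number of genes), red where a gene was at least 1.5-fold higher on all 4 arrays, with the list median as a black bar and the median of all genes as a dashed line. Red points, beside 1.16% of all genes, stand in 4 of the 6 ER lists, where the sensor list holds only the chosen member Xbp1. The PERK and ATF4 list and the heat shock list hold 0, and at that share lists this short would hold few or none. List medians run from -0.01 to 0.34.

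The response element was then set beside the ratios. It stood in any window of 10 of the 82 ER-list genes that have a RefSeq window (12.2% of genes), beside 0.113% of single windows. A gene can have more than 1 window, so these shares have unlike units. Of the genes past the fold line on all arrays 7 had a window and 3 held the element, namely Creld2, Hsp90b1 and Pdia6. The 7 include Creld2, Prdx4 and Xbp1, which were chosen with their ratios known, so these counts are a description only. The elements of these genes and of Hspa5 are aligned here, each read on the strand that starts with CCAAT, with the fixed letters in capitals.
Hspa5, chr2:34772025-34772043: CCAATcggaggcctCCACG
Creld2 and Alg12, chr15:88819520-88819538: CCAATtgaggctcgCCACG
Hsp90b1, far copy, chr10:86705638-86705656: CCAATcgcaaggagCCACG
Hsp90b1, near copy, chr10:86705533-86705551: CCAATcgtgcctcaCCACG
Pdia6, chr12:17266491-17266509: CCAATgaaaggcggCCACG

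The element of Creld2 is also that of Alg12, a mannosyltransferase gene that starts on the opposite strand. Alg12 had log2 ratios of 0.20 and -0.24 in UCP air, against -0.05 and -0.43 in particle-free air, and its 2 probes averaged 0.10 and -0.36. Creld2 was at 0.90 or more on every array, as were 0.463% of all probes. It was chosen with its ratio known, so its lack of overlap with Alg12 is a description only. The other genes with the element were Calr at 0.48 ± 0.29, Derl3 at 0.30 ± 0.34, Dnajc3 at 0.23 ± 0.25, Ero1b at 0.12 ± 0.62 and Canx at -0.13 ± 0.17 (SD, n = 4 each). The 2 probes of Canx disagreed, with averages of 0.53 and -0.80. Mean log2 ratios of the 10 genes thus ran from -0.13 to 1.05, the highest being the chosen Creld2 and the next Pdia6 at 0.92. The shorter unfolded protein response element, TGACGTGG, which can overlap a CCACG on the other strand, was found in 5 of the 82 genes (0.563% of all windows), of which Txndc5 was past the fold line. The related element ATTGG, 1 free base and CCACG was found in Herpud1 alone of the 82 (0.0304% of all windows), a degradation gene at 0.52 ± 0.18 (SD, n = 4).

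The genes whose 4 values lay nearest to the mean profile of the members were found by Euclidean distance over the 4 arrays. The nearest was Eef1b2, a translation elongation factor subunit, at a distance of 0.16, followed by the calcium-binding protein gene Efhd2 at 0.24 and by Pdia6 at 0.25. Rps9, Mpeg1, C7, Arpc5, Hmgn2, Selenop and Lhfpl2 completed the nearest 10, at 0.27 to 0.35. Of these 10 genes Pdia6 was the 1 that the pathway lists hold. The nearest gene to each member was Mpeg1 for Hspa5 (0.15), Kpna2 for Creld2 (0.26), Gpx1 for Prdx4 (0.20) and Dok2 for Xbp1 (0.26), while members lay 0.32 (Creld2 and Prdx4) to 0.89 (Prdx4 and Xbp1) from each other. With 4 arrays, likeness means a similar ratio on each array and little more.

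Markers of secretory and other cell types were read on the same arrays. Of 5 measured plasma cell markers 4 were above 0 on all 4 arrays, beside 14.2% of all genes. The list medians were 0.58 and 0.55 in UCP air and 0.55 and 0.15 in particle-free air. Pou2af1, a B cell coactivator, was highest at 1.31 ± 0.48 and Sdc1, the plasma cell surface proteoglycan, was lowest at -0.04 ± 0.15 (SD, n = 4 each). The 5 goblet cell markers had medians of 1.06 and 0.59 in UCP air and 0.69 and 0.87 in particle-free air, with Slc26a4 highest at 4.24 ± 0.51 and Itln1 lowest at 0.36 ± 0.88 (SD, n = 4 each). Of 9 macrophage markers 8 were at least 1.5-fold higher on all arrays, beside 1.16% of all genes, Marco at -0.36 ± 0.36 (SD, n = 4) being the exception. The macrophage medians were 2.10 and 1.82 in UCP air and 1.81 and 1.56 in particle-free air. The part of these cells in the ratios of Hspa5, Creld2, Prdx4 and Xbp1 was not tested.

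Lung epithelium markers, 9 of 14 measured, had medians from -0.30 to -0.04, with Cyp2f2 lowest at -1.29 ± 0.39 and Ager highest at 0.18 ± 0.31 (SD, n = 4 each). Ratios give no level, so the labelled tissue could not be checked by its markers. Hepatocyte markers had medians over 14 genes of 0.53 and 0.37 in UCP air, against 3.18 and 2.67 in particle-free air, and with Alb at -0.53 and 0.81 against 4.75 and 4.46. At least 1.5-fold higher on both arrays were 0 of the 14 in UCP air and 9 in particle-free air, beside 2.93% and 3.73% of all genes. Fga was lowest at 0.12 ± 0.33 (SD, n = 4). In limma's difference between the airs 0 of the 15 hepatocyte probes passed an adjusted p of 0.05, beside 0% of all probes in either direction. By the unadjusted p 9 were lower in UCP air, beside 2.02% of all probes. Heart muscle markers had medians over 10 genes of -2.28 and -2.09 in UCP air, against -0.02 and -0.11 in particle-free air, and Nppa had -5.72 and -5.91 against 0.38 and -0.17, with Actc1 highest at 0.17 ± 0.62 (SD, n = 4). The mean of the 4 members was 1.03 and 0.86 in UCP air, against 0.86 and 1.01 in particle-free air, and the part of liver or heart RNA in it was not tested. Pancreatic acinar markers, from a tissue rich in ER, had medians of 0.05 to 0.34 over 7 genes, with Cpa1 alone far above at 1.69 ± 0.09 and Cela3b lowest at -0.15 ± 0.71 (SD, n = 4 each).

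**Figure D5:**
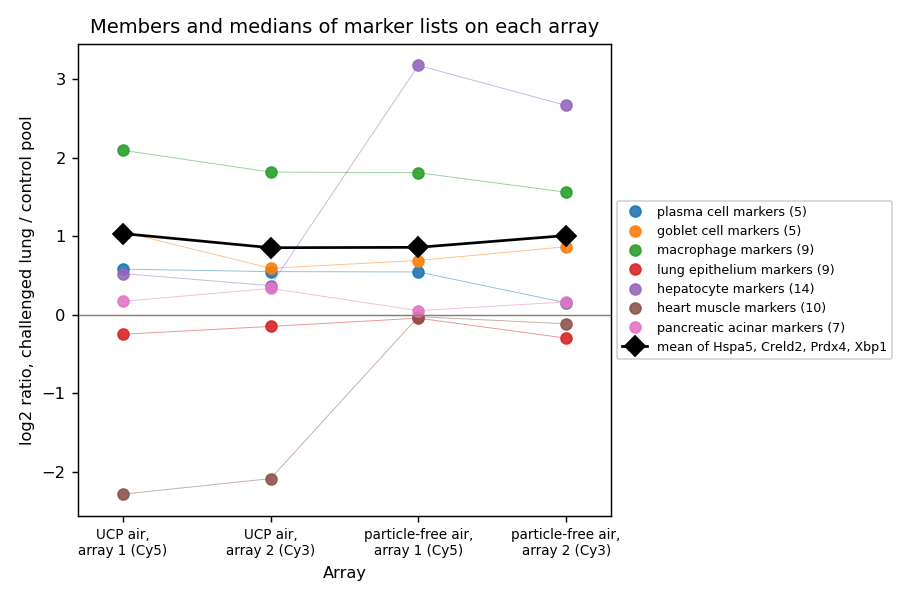
Log2 ratio of challenged lung over its control pool (vertical axis) on each of the 4 arrays (horizontal axis), as the mean of Hspa5, Creld2, Prdx4 and Xbp1 (black diamonds) and as the median of 7 marker lists (coloured points, with the number of genes; lines only guide the eye). The mean of the members stays between 0.86 and 1.03, while the hepatocyte medians are 0.53 and 0.37 in UCP air, against 3.18 and 2.67 in particle-free air.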

How the data were processed

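The authors deposited a log2 ratio per probe and array; how images were read and normalized is not given in the sources used here. Per the labels' protocols, cDNA of 20 µg RNA was coupled to Cy3 or Cy5. Groups and dyes were taken from the labels, and the control pool counts as 1 control sample per air, so its own spread is left out.

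The platform annotation gave 1 symbol to 13852 of 20205 probes, several to 0 and no symbol to 6353, and 13849 symbols were found through the Entrez identifier. Probes lacking a value on any array (2045) were dropped, and no filter on dim probes was possible without brightness. The fit used limma 3.58.1 under R 4.3.3 with a coefficient for either air, 2 residual and 2.32 prior degrees of freedom, adjusted by Benjamini-Hochberg over all probes. On simulated data for UCP minus particle-free air (18160 probes) the fit found 0% of probes given a log2 change of 1, 2% at a change of 2 and 78% at a change of 4, and made 8 false calls. For the averaged effect it found 10% at a change of 1 and 90% at 2, and made 13 false calls. The simulated noise was normal with the moderated spread of each probe, which is more even than the spread in the data. In the data the averaged effect passed 1 of 18160 probes, and Slc26a4 at 4.24 ± 0.51 (SD, n = 4) did not pass. The simulated shares may therefore be too high for these data.

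Members and lists were chosen with earlier results of these data known. Named genes were the members, list genes at least 1.5-fold the same way on all 4 arrays, the highest and lowest of each list, and the nearest by distance. Genes outside that rule (Manf, P4hb, Atf4, Ddit3, those with a response element, and those in the closing section) were chosen after their values were seen. Promoter windows came from RefSeq (GRCm38.p6). Alternatives were centring, scaling, leaving out each array, a replicate block, averaging probes or arrays, keeping probes with at least 1 value in each air, a 2-fold line and each air alone, the last chosen after seeing the data.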

Additional observations from a re-analysis of the deposited data

Results flagged for a closer look

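In 6 of 139 pathway genes both UCP arrays lay on one side of 0 and both particle-free arrays on the other, which is 4.32% beside 7.70% of all genes. The members were not among them. Limma's test of the difference on genes passed 0 of the 6 (adjusted p = 0.979 for each, 2 arrays per air). Hspa1a, the inducible cytosolic Hsp70, had a UCP minus particle-free difference of 1.10, with 0.90 and 0.92 in UCP air, against -0.38 and -0.003 in particle-free air. Hspa4, an Hsp110-type chaperone with 3 probes, had a difference of 1.09, and its probes disagreed: 1 had 0.41 and 1.14 in UCP air, against -0.80 and -2.58 in particle-free air, while another had 0.07 and 0.34 against 0.10 and 0.17. Ero1a, the oxidase that recharges disulfide isomerases, had -1.58, with -0.08 and -0.19 in UCP air, against 2.26 and 0.64 in particle-free air. The tRNA synthetase genes Nars and Iars had -0.92 and 0.32, and Vcp, the ATPase of ER-associated degradation, had 0.31.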

How the results depend on the processing

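The averaged log2 ratios of Hspa5, Creld2, Prdx4 and Xbp1 kept their direction under every alternative run and moved by less than their SD over arrays. Most of these runs could not have given another outcome. Every member value was above 0, and leaving out arrays as was done here cannot move a mean of 4 by its SD. Averaging probes and the replicate block leave the mean unchanged, so only centring and scaling could have moved it further. With 1 array left out they ran from 0.70 to 0.82, 0.997 to 1.101, 1.10 to 1.18 and 0.69 to 0.88. The difference between the airs passed the test for none of the 4 in any setting. Its sign turned for Hspa5 and Creld2, whose estimates are near 0, to 0.12 and 0.15 with arrays centred and scaled, a setting that gave -0.03 for Prdx4 and 0.40 for Xbp1. With 1 array left out it ran from -0.19 to 0.18 for Hspa5 (0.13 without array 2 of UCP air and 0.18 without array 2 of particle-free air), from -0.17 to 0.14 for Creld2 (0.14 without array 2 of particle-free air), from -0.22 to -0.18 for Prdx4 and from 0.02 to 0.50 for Xbp1. The count of ER-list genes at least 1.5-fold higher on all 4 arrays was 8, the chosen Creld2, Prdx4 and Xbp1 among them. With 1 array left out it was 8 to 10, with all 8 shared. It was 14 on the particle-free arrays alone (3.73% of all genes), 12 on the UCP arrays alone (2.93%) and 1 at 2-fold (Prdx4, 0.295% of all genes). Probes at least 1.5-fold the same way on all 4 arrays numbered 424, 1413 on the UCP arrays alone, 1507 on the particle-free arrays alone, 199 by gene and 134 at 2-fold, and 609 to 696 with 1 array left out, where fewer arrays had to pass. Limma's averaged effect called 1 probe, 2 with arrays centred and scaled, 9 by gene, 0 with the 2 arrays of an air averaged and 0 to 34 with 1 array left out (34 without array 1 and 0 without array 2 of UCP air, 22 without array 1 and 9 without array 2 of particle-free air). The difference called 0 probes and 0 to 32 with 1 array left out (32 without array 1 of UCP air, 19 without array 1 and 8 without array 2 of particle-free air), and the cause was not tested. The replicate block, which is also the dye orientation, left 0 calls in the averaged effect (smallest adjusted p = 0.221) and 0 in the difference. Array 1 minus array 2 correlated between the airs at r = 0.05 (Spearman's rho 0.12) over probes, and the numbers were not taken to pair the arrays.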

Other observations

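Other genes of neighbouring routes are outside the rule for names and were chosen after their values were seen. Gpx7, an ER peroxidase that like Prdx4 feeds disulfide formation, had log2 ratios of 1.22 and 0.98 in UCP air, against 0.51 and 0.84 in particle-free air (mean 0.89 ± 0.30, SD, n = 4). Fkbp11, a prolyl isomerase of secretory cells that stood in the plasma cell list, averaged 1.40 ± 0.14 in UCP air and 0.77 ± 0.32 in particle-free air (SD over 2 arrays each). Ddost, a further oligosaccharyltransferase subunit, had 0.44 and 0.44 in UCP air, against 0.67 and 0.71 in particle-free air. Ssr4, which belongs to the translocon-associated complex, averaged 0.88 ± 0.42 (SD, n = 4), its lowest value being 0.26.

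Several pathway genes owed their mean to 1 array. Stt3b, a catalytic oligosaccharyltransferase subunit, had 3.79 and Slc3a2, the heavy chain of an amino acid exchanger, 3.82 on array 2 of UCP air, the array on which Erp29 also had 3.53. On the other 3 arrays Stt3b ran from -0.70 to -0.20 and Slc3a2 from -0.12 to 0.40.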
